A study of Mus musculus with 6 samples.

Results

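The aryl hydrocarbon receptor (AhR) pathway was described through 7 genes in the livers of mice given polystyrene microplastics (PS-MP) or water. The genes are Ahr, Arnt, Ahrr, Cyp1a1, Cyp1a2, Cyp1b1 and Tiparp, taken by gene symbol with earlier results of these data known. No measured value entered the rule, and all 7 were found among the 55536 genes of the expression tables. Liver RNA from male mice of the inbred C57BL/6 strain, aged 6 weeks at the start, gave 6 libraries. In the PS-MP group (3 libraries) mice received 0.4 mg/day of the particles by mouth, with 2 dosings per week over 8 weeks, and in the water group (3 libraries) they received water on that schedule. No genetic change is given for either group. The particles' size, surface chemistry and additives are not given in the sources used here, nor are the hour of collection, feeding state, cage or batch. A group difference in any of these cannot be told apart from PS-MP.

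AhR is a transcription factor that waits in the cytosol in a complex with HSP90 and binds flat aromatic molecules such as dioxins, polycyclic hydrocarbons and tryptophan derivatives. With a ligand bound, it enters the nucleus, pairs with ARNT and binds DNA at dioxin response elements, whose core reads GCGTG, near genes of xenobiotic metabolism. The CYP1 enzymes, the repressor AHRR and the enzyme TIPARP are direct targets, so their transcripts serve as a readout of an active receptor, and C57BL/6 mice carry a responsive form of it. In liver, CYP1A2 is made by hepatocytes without any added ligand, mostly around the central vein, whereas CYP1A1 is near silent until the receptor is activated. The comparison asked whether these readouts differed between PS-MP and water.

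Promoter windows from RefSeq (build GRCm38.p6, 250 bases before to 50 after the transcript start) were found for 6 of the 7 genes, all but Ahr. Of these, 3 are printed because they span the pathway's extremes in the data below. Cyp1a1 and Cyp1a2 are neighbours on chromosome 9, read in opposite directions from starts 13958 bases apart, and their liver levels differ steeply. Ahrr has the most response element cores and the lowest level. Capitals mark GCGTG, or CACGC where it lies on the other strand; the 2 motifs were searched on the printed strand and can overlap each other.

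Cyp1a2 (chr9:57683606-57683905, minus strand): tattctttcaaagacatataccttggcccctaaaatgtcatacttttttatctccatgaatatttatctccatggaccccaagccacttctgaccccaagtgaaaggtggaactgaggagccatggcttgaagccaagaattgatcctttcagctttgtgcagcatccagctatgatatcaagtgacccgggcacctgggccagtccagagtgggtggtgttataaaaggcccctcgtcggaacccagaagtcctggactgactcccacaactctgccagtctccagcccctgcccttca
Cyp1a1 (chr9:57697363-57697662, plus strand): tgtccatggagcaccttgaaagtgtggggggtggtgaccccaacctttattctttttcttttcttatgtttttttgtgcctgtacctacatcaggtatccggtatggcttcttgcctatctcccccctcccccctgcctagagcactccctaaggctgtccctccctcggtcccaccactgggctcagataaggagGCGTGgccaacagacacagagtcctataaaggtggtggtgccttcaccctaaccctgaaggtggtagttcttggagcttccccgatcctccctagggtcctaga
Ahrr (chr13:74292282-74292581, minus strand): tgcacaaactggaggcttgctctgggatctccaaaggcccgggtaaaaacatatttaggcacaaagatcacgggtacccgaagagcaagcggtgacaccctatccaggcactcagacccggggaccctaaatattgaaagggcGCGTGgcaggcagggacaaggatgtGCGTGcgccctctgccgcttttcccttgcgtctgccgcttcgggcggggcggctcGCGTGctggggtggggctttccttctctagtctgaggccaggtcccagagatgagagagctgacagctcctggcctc

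The Cyp1a2 window held 0 cores. The Cyp1a1 window held 1, whose first base lies at position -54 from the transcript start, and the Ahrr window held 3, at -107, -82 and -27. Arnt, Cyp1b1 and Tiparp held 1 core each. Of all 32851 windows of this length, 32.4% held at least 1 core and 3.91% at least 3, so a single core is common. The Ahrr window had 17 CG dinucleotides, against 4 in that of Cyp1a1, 3 in that of Cyp1a2 and a median of 7 over all windows. A match is a description of the letters and not a bound site, and the well-studied response elements of Cyp1a1 lie further upstream than this window.

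None of the AhR readouts differed between PS-MP and water by more than the spread between libraries allows to be called. Of the 7 genes, 5 had enough reads to enter the test over all 13299 genes, and 0 of these 5 passed (limma, Benjamini-Hochberg adjusted p under 0.05; 0 also had an unadjusted p under 0.05, against 1737, or 13.1%, of all genes tested). Over all genes tested, 65 passed, which is 0.489%; 0.241% were higher and 0.248% lower in PS-MP. The smallest log2 fold change among those 65 was 0.45 in size, and all 5 members lay under that, so a miss here does not show that a member was unchanged. The values of PS-MP and water overlapped for all 5 tested members, where the groups did not overlap for 19.2% of all genes tested. The 5 tested members had a median log2 fold change of -0.11, and all genes tested had one of 0.01. The members' median is the value of Cyp1b1, a gene with few reads, and depends on the 0.5 added to the expression values before the log. With 0.1 or 1 added instead, it was -0.16 or -0.07. Cyp1a1 and Ahrr had too few reads for the test and are given below as reads.

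Library totals ran from 13082210 to 16948343 reads. Transcripts of other tissues were uneven between libraries. A list of 10 forebrain transcripts summed to 1.49 to 1.75 FPKM (fragments or reads per kilobase of exon, scaled to the library total) in water and to 3.88, 2.73 and 29.4 FPKM in PS-MP replicates 1, 2 and 3. A list of 6 fat transcripts summed to 1.93 to 37.3 FPKM in water and 1.55 to 16.2 FPKM in PS-MP. The hepatocyte list (Alb, Apoa1, Ttr, Serpina1c, Hnf4a, Tat and Fgb) had reads for all 7 markers in every library. Its sum, mostly Alb, was 40770, 43710 and 40760 FPKM in water and 41100, 39110 and 33650 FPKM in PS-MP replicates 1, 2 and 3. PS-MP replicate 1 was thus among the water libraries, and PS-MP replicates 2 and 3 were below them. Of the 7 markers, only Alb had this split by itself. Ttr was below water in all PS-MP libraries and Apoa1 in PS-MP replicate 1 only. Serpina1c, Hnf4a, Tat and Fgb were below water in no PS-MP library. Ahr, Cyp1a2 and Cyp1b1 have the same split of the PS-MP libraries below, though Ahr and Cyp1b1 do not have the same order of all libraries. The part of this list in those values was not tested. In bulk liver, fewer cells of a type and less RNA per cell cannot be told apart.

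Levels per exon length set the members in a steep order that was alike in both groups. Cyp1a2 was far the highest, followed by Ahr, Arnt, Tiparp, then Cyp1b1 together with Cyp1a1, then Ahrr. Cyp1b1 and Cyp1a1 were the only neighbours in this order whose ranges over the 6 libraries overlapped. Cyp1a2 was the 17th to 19th most abundant of 99 protein-coding Cyp genes and made up 0.793% to 0.972% of their summed FPKM. Within the CYP1 family it supplied 99.6% to 99.8% of the summed FPKM.

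**Figure D1:**
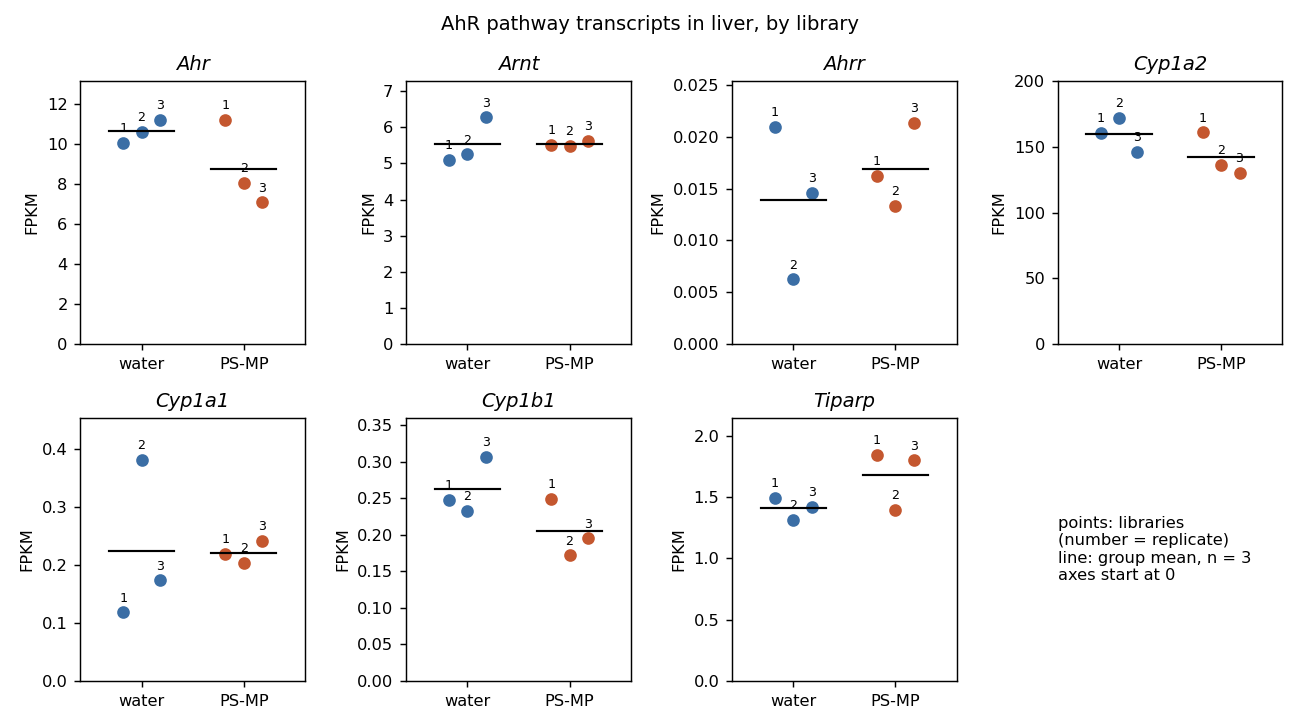
FPKM of the 7 AhR pathway genes in each liver library (y axes in FPKM, starting at 0; blue, water; orange, PS-MP; numbers are replicates; lines are group means, n = 3). The groups overlap in every panel, and PS-MP replicates 2 and 3 lie below all water libraries for Ahr and Cyp1a2 while PS-MP replicate 1 does not.

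Ahr (ENSMUSG00000019256, GRCm38 chromosome 12, 35497974 to 35535038, minus strand) encodes the receptor itself. Its level was 10.06, 10.64 and 11.24 FPKM in water replicates 1, 2 and 3, and 11.22, 8.05 and 7.09 FPKM in PS-MP replicates 1, 2 and 3. PS-MP replicates 2 and 3 were thus below every water library and PS-MP replicate 1 was among them. The group means were 10.6 ± 0.588 and 8.79 ± 2.16 FPKM (SD, n = 3 each), and the spread was wider in PS-MP, with a coefficient of variation of 24.6% against 5.53%. The log2 fold change was -0.29 with a standard error of 0.15 (limma adjusted p = 0.471), and its 95% interval ran from 0.644-fold to 1.04-fold. Without PS-MP replicate 1 the log2 fold change was -0.47 (limma, unadjusted p = 0.00194, adjusted p = 0.131). That fit leaves out the PS-MP library nearest to water, so its lower p does not count as support for a change. Fits without any other library gave unadjusted limma p of 0.113 to 0.295. Leaving out PS-MP replicate 3, where forebrain transcripts were highest, gave a log2 fold change of -0.15. The Ahr exons overlap those of Gm48236, a long non-coding RNA on the other strand with at most 2 reads in a library.

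Arnt (ENSMUSG00000015522, chromosome 3, 95434388 to 95497240, plus strand) encodes the obligate DNA-binding partner, which AhR shares with the hypoxia factors. It was at 5.11, 5.25 and 6.27 FPKM in water and at 5.52, 5.49 and 5.62 FPKM in PS-MP. The 3 PS-MP values lay inside the range of water, and the means were 5.54 ± 0.635 and 5.54 ± 0.069 FPKM (SD, n = 3 each). The log2 fold change was 0.005 with an interval of 0.864-fold to 1.16-fold (limma adjusted p = 0.99), and its sign turned with median-of-ratios (-0.01) and upper quartile scaling (-0.015). The ratio of Ahr to Arnt FPKM was 1.97, 2.03 and 1.79 in water and 2.03, 1.47 and 1.26 in PS-MP, again with PS-MP replicate 1 beside the water libraries.

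Ahrr (ENSMUSG00000021575, chromosome 13, 74211118 to 74292331, minus strand) encodes the AhR repressor, which competes for ARNT and is itself induced by the receptor. The water libraries had 3, 1 and 2 reads and the PS-MP libraries 2, 2 and 3, which left it under the low-count rule. Summed over each group, 6 and 7 reads gave a ratio of 1.24 relative to the library totals, with an exact 95% interval of 0.356 to 4.46 that covers counting error only. A change of a few times in Ahrr could not have been detected at this depth.

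Cyp1a2 (ENSMUSG00000032310, chromosome 9, 57676937 to 57683703, minus strand) encodes the main constitutive CYP1 enzyme of liver, which oxidises caffeine and aromatic amines. Its level was 160.6, 171.9 and 145.9 FPKM in water and 161.0, 136.4 and 130.4 FPKM in PS-MP. PS-MP replicate 1 lay within the water range and PS-MP replicates 2 and 3 below it. The means were 159 ± 13.0 and 143 ± 16.2 FPKM (SD, n = 3 each). The log2 fold change was -0.16 with a standard error of 0.10 (limma adjusted p = 0.534), and the 95% interval ran from 0.761-fold to 1.05-fold. Without PS-MP replicate 1 it was -0.25 (limma, unadjusted p = 0.0308, adjusted p = 0.362). That fit again leaves out the PS-MP library nearest to water, so its lower p does not count as support for a change. Fits without any other library gave unadjusted limma p of 0.0772 to 0.364. The list of 10 pericentral hepatocyte genes, the zone that holds CYP1A2, summed to 5469 to 6032 FPKM in water and 5408 to 6257 FPKM in PS-MP. Cyp2e1 made up most of that sum, none of the 9 tested genes passed, and 2 were higher and 1 lower in PS-MP with no overlap. Over all genes tested, 11.1% were higher and 8.12% lower in PS-MP with no overlap. The 10 periportal genes summed to 4093 to 4850 FPKM in water and 5159 to 5187 FPKM in PS-MP, with no overlap. Cps1, Pck1 and Ass1 made up most of that sum. Of the 10 genes, 5 were higher with no overlap, beside the 11.1% over all genes tested, and 0 passed. The part of these zonal lists in the Cyp1a2 values was not tested.

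Cyp1a1 (ENSMUSG00000032315, chromosome 9, 57687928 to 57703824, plus strand) encodes the enzyme most used as a marker of AhR activation, since ligands raise its transcript from near nothing. Its reads numbered 5, 18 and 7 in water against 8, 9 and 10 in PS-MP, or 0.118, 0.381 and 0.173 FPKM against 0.219, 0.203 and 0.241 FPKM. The highest library was water replicate 2, and the 3 PS-MP libraries lay within the water range. Only 2 libraries reached the level needed for the test. The group sums of 30 and 27 reads gave a ratio of 0.956 relative to the library totals, with an exact 95% interval of 0.547 to 1.66 (counting error only), and an exact two-sided permutation test of the 6 FPKM values gave p = 1 (smallest possible p = 0.1). Cyp1a2 was 451 to 1360 times as high as Cyp1a1 in every library, on the FPKM scale.

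Cyp1a1 and Cyp1a2 are close relatives, so reads of the abundant gene could in principle be counted for the rare one. Of the distinct 50-base stretches in their transcripts, 94 occurred in both genes, which is 3.43% of those of Cyp1a1 and 4.79% of those of Cyp1a2. At 100 bases 38 were shared, and at 150 bases 0. With no read length stated, part of the few Cyp1a1 reads may belong to Cyp1a2; this was not tested.

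Cyp1b1 (ENSMUSG00000024087, chromosome 17, 79701537 to 79715061, minus strand) encodes the CYP1 enzyme of mesenchymal cells. It was at 0.248, 0.232 and 0.307 FPKM in water and at 0.249, 0.172 and 0.195 FPKM in PS-MP, from 16 to 26 reads a library. PS-MP replicate 1 was again among the water values, with the other two below them. The log2 fold change was -0.11 with a standard error of 0.10 (limma adjusted p = 0.668). On FPKM without the added 0.5 the ratio of group means was 0.782, and limma-voom on the reads gave a log2 fold change of -0.36 with a standard error of 0.30. The 9 stellate cell and fibroblast markers summed to 71.68 to 95.03 FPKM in water and 78.2 to 88.7 FPKM in PS-MP. Ecm1 and Dcn made up most of that sum. Of the 9 log2 fold changes, 4 were positive and 5 negative, the lowest those of Col3a1 (-0.293) and Col1a1 (-0.265), and 0 passed. The part of this list in the Cyp1b1 values was not tested.

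Tiparp (ENSMUSG00000034640, chromosome 3, 65528410 to 65555518, plus strand) encodes an ADP-ribosyltransferase that is induced by AhR and shuts the receptor down. It was at 1.496, 1.313 and 1.422 FPKM in water and at 1.84, 1.40 and 1.80 FPKM in PS-MP. PS-MP replicates 1 and 3 were above all water libraries, and PS-MP replicate 2 was within them. The means were 1.41 ± 0.092 and 1.68 ± 0.246 FPKM (SD, n = 3 each). The log2 fold change was 0.18 with a standard error of 0.12 (limma adjusted p = 0.545; interval 0.943-fold to 1.37-fold). Without PS-MP replicate 2 it was 0.28 (limma, unadjusted p = 0.0444, adjusted p = 0.36). Here too the library left out is the PS-MP one nearest to water, so the lower p does not count as support for a change. Fits without any other library gave unadjusted limma p of 0.162 to 0.356. The Tiparp exons overlap the pseudogene 4931440P22Rik on the other strand, which had 0 to 10 reads a library.

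**Figure D2:**
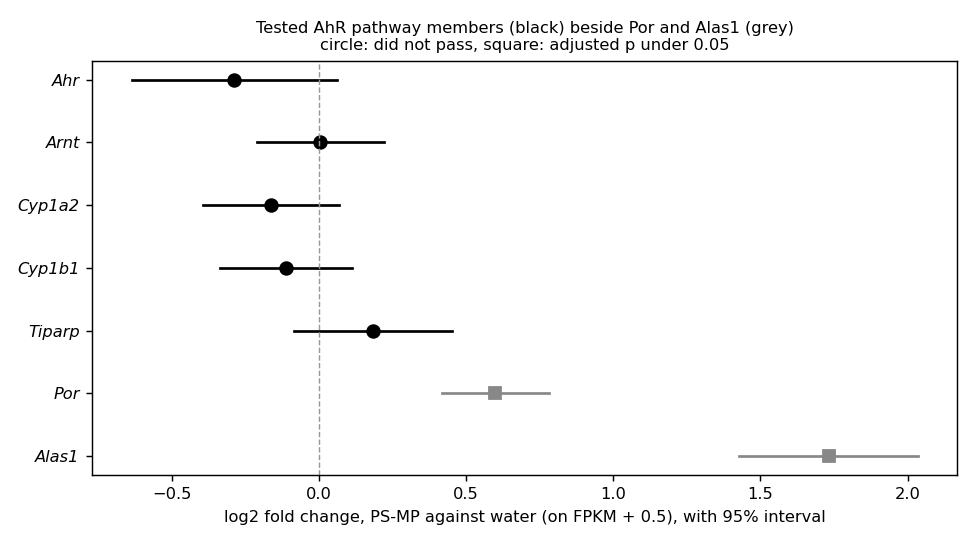
Log2 fold change of PS-MP against water on FPKM + 0.5 (x axis) for the 5 tested members (black) and for Por and Alas1 (grey), with 95% intervals from limma; squares passed an adjusted p of 0.05, circles did not. The intervals of all 5 members include 0, and those of Por and Alas1 do not. Por and Alas1 are shown because they passed, so it follows from that choice that their intervals leave out 0.

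Leaving out 1 library at a time moved each member without any of them passing the adjusted threshold. With 1 library fewer, only 0 to 36 of all 13299 genes tested passed, so a member that did not pass says little. The Ahr log2 fold change moved most, between -0.47 and -0.15, and the Cyp1a2 value lay between -0.25 and -0.10. Cyp1b1 lay between -0.16 and -0.07 and Tiparp between 0.13 and 0.28 in these fits. Arnt lay between -0.05 and 0.09, on both sides of 0.

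**Figure D3:**
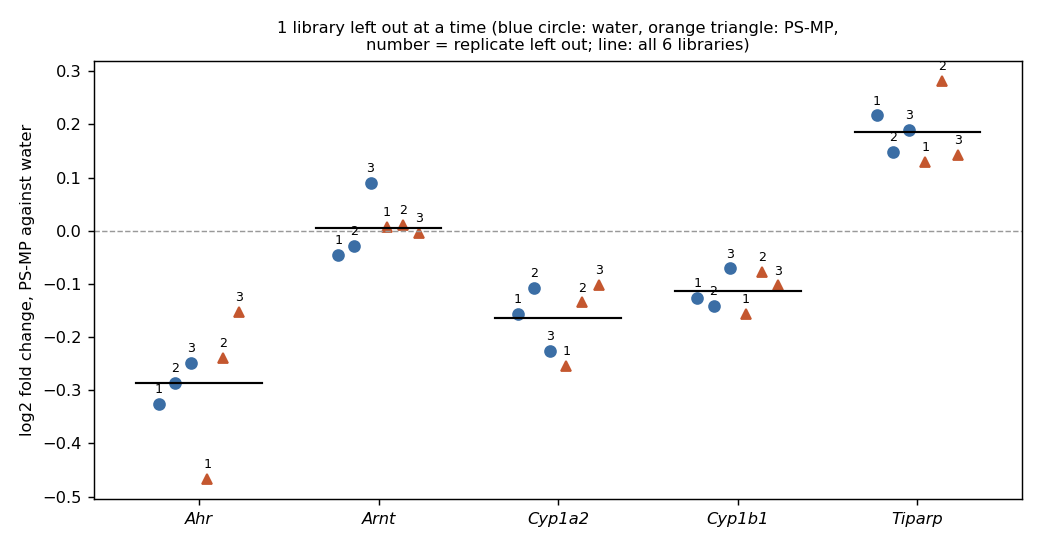
Log2 fold change of PS-MP against water for the 5 tested members (y axis) with 1 library left out at a time (blue circles, a water library; orange triangles, a PS-MP library; the number is the replicate left out; lines, all 6 libraries). The lowest Ahr value, -0.47, is the fit without PS-MP replicate 1.

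The other components of the receptor's cycle were described from gene lists. None of the 7 tested genes of the cytosolic complex and the related bHLH-PAS partners passed (median log2 fold change 0.08, and between -0.004 and 0.15 over the 15 alternatives). The chaperone genes Hsp90aa1, Hsp90ab1 and Ptges3, which hold AhR in the cytosol, had log2 fold changes of -0.02, -0.10 and -0.02. Hif1a, Epas1 and Hif3a, which encode the hypoxia factors that compete with AhR for ARNT, had 0.21, 0.17 and 0.15, and the groups did not overlap for all 3. Higher values in all PS-MP libraries, with no overlap, were found in 11.1% of all genes tested, and lower ones in 8.12%. Limma gave Hif1a, Epas1 and Hif3a adjusted p of 0.283, 0.367 and 0.499. Hif3a rested on 9 to 18 reads a library, and its log2 fold change was 0.73 with limma-voom (adjusted p = 0.383). Arnt2, the ARNT of neurons, did not enter the test; its reads numbered 1, 0 and 0 in water against 3, 3 and 73 in PS-MP replicates 1, 2 and 3. The forebrain transcripts were highest in that same replicate 3.

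None of the further AhR-inducible genes passed, though some had small p-values. Of 18 listed, 14 were tested, with 10 positive and 4 negative log2 fold changes and a median of 0.14. An unadjusted limma p under 0.05 was found for 3 of the 14, all higher in PS-MP, and for 1737 of all 13299 genes tested. The groups did not overlap for these same 3 genes, where 11.1% of all genes tested were higher in PS-MP with no overlap. The smallest p belonged to Slc46a3, a lysosomal transporter induced by dioxin in mouse liver. It was at 7.74, 7.56 and 6.47 FPKM in water and 9.70, 10.08 and 10.94 FPKM in PS-MP, with no overlap. Its log2 fold change was 0.47 with a standard error of 0.09 (limma adjusted p = 0.0967).

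Xdh, the xanthine dehydrogenase that makes uric acid, was at 13.66, 15.14 and 14.96 FPKM in water and 20.45, 17.68 and 19.62 FPKM in PS-MP. All PS-MP libraries were above all water libraries, and the log2 fold change was 0.39 with a standard error of 0.08 (limma adjusted p = 0.106). Nqo1, a quinone reductase that NRF2 also controls, had a log2 fold change of 0.32 (limma adjusted p = 0.32), and its groups did not overlap, at 4.52 to 4.58 FPKM in water and 4.88 to 6.91 FPKM in PS-MP. Aldh3a1, Scin and Serpinb2 were among the genes under the low-count rule. Aldh3a1, an aldehyde dehydrogenase that strong AhR ligands induce in liver, was counted 0, 4 and 0 times in water and 0, 1 and 0 times in PS-MP. The Ugt1a6a, Ugt1a6b and Ugt1a9 transcripts share exons, so their values are uncertain, and their log2 fold changes were 0.05, -0.14 and 0.31.

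Enzymes of tryptophan breakdown supply kynurenine and other endogenous AhR ligands. Of 11 listed, 9 were tested and 0 passed, with a median log2 fold change of 0.15, 7 positive and 2 negative. Tdo2, which opens the tryptophan ring in hepatocytes and is named after its values were known, was at 710.7, 873.5 and 813.8 FPKM in water and 901.0, 953.1 and 968.3 FPKM in PS-MP. Its groups did not overlap, and its log2 fold change was 0.24 (limma unadjusted p = 0.0431, adjusted p = 0.367). Afmid, the next enzyme, had 0.47 and Kmo, which hydroxylates kynurenine, 0.16, both with PS-MP above water in all libraries. Kynu, which cleaves kynurenine, had -0.21, with PS-MP below water in all libraries. These 4 of 9 were the genes of the list with an unadjusted limma p under 0.05, against 13.1% of all genes tested. Limma gave Afmid, Kmo and Kynu adjusted p of 0.237, 0.334 and 0.333. The count of 4 fell to 1 without water replicate 3, and also to 1 without PS-MP replicate 3. Over the 15 alternatives the median log2 fold change of the list lay between 0.017 and 0.177. Afmid shares exons with Tk1, so its value is uncertain. Ido1, the inducible enzyme outside the liver, had 0 reads in all libraries.

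Targets of the ARNT-containing hypoxia factors had a median log2 fold change of -0.002 (between -0.058 and 0.046 over the alternatives), and 0 of the 10 tested of 12 listed passed. P4ha1, a collagen hydroxylase subunit, had -0.37 (limma adjusted p = 0.348), Ndrg1 -0.37 (0.352) and the growth factor Vegfa 0.16 (0.428).

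In the list of P450 electron supply and haem, 2 of 7 genes passed, both higher in PS-MP, against 0.241% of all genes tested. The list was chosen with earlier results of these data known, so this count is a description only. Por, which passes electrons to CYP1 and all other microsomal P450 enzymes, was at 107.0, 125.4 and 123.6 FPKM in water and 180.0, 184.3 and 174.5 FPKM in PS-MP (log2 fold change 0.60, limma adjusted p = 0.0358). Alas1, the rate-limiting enzyme of haem synthesis, was 3.32-fold higher (limma adjusted p = 0.00831). Cyb5r3 had 0.11 and did not pass. The Por call was lost in 8 of 15 alternatives, among them each fit without 1 library, and the Alas1 call in 2. Por and Alas1 thus passed in the same 6 libraries in which the 5 tested AhR members did not; the difference between them was not tested.

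**Figure D4:**
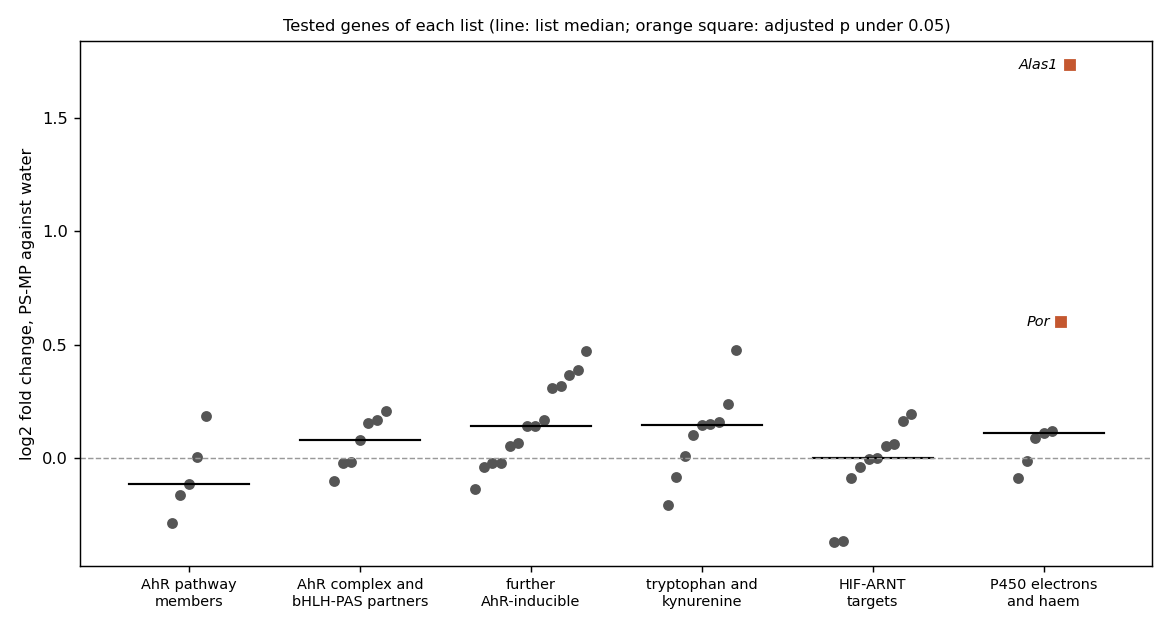
Log2 fold change of PS-MP against water (y axis) for the tested genes of the AhR pathway and of 5 related lists; each point is a gene, lines are list medians, and orange squares passed an adjusted p of 0.05. Por and Alas1 are the only squares, and the medians of the 6 lists lie between -0.11 and 0.15.

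Over the 6 libraries, the genes whose log2 values were most like those of a member were found by Pearson's r, as a description. Ahr was most like Keap1 (r = 0.987), Lyrm7 (0.986) and Il10rb (0.986). Cyp1a2 was most like Me1 (0.993), Herpud1 (0.986) and Tmem184b (0.984). Arnt was most like Adgrl2 (0.994), Dip2b (0.993) and Papolg (0.992). Cyp1b1 was most like Lrrc32 (0.992), Rsrc2 (0.991) and Nono (0.988), and Tiparp most like Tor1aip1 (0.98), Cyb5a (0.977) and Txlng (0.976). Between 16 and 27 genes reached r = 0.95 with a member, and no member was among the 3 genes most like another. These genes were picked for high r among all genes tested, over only 6 libraries. Whether unrelated genes reach such r as often was not tested, so the pairs do not show shared regulation.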

How the data were processed

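The deposited tables hold 1 FPKM value per gene and library, as the authors made them. The tools, per the submitters' processing notes, were CASAVA, FastQC, MultiQC, Trimmomatic 0.38, HISAT2 2.1.0, featureCounts 1.6.0 and DESeq2 1.22.1; the notes name a human build, whereas all 55536 identifiers matched GENCODE M21 (mouse, GRCm38), which gave symbols, coordinates and exon lengths. The sources used here do not say whether counting used strand. FPKM times merged exon length was a whole number of reads, within 0.05 reads, for 100.0% of genes above 0, and the sums matched the implied totals; "reads" means these.

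Genes with at least 10 reads in a library of median size (0.66 CPM) in 3 libraries, and 15 reads in all, were tested with limma-trend (limma 3.58.1, R 4.3.3) on log2(FPKM + 0.5), group as the only term, two-sided, Benjamini-Hochberg over 13299 genes. The added 0.5 understates changes of low genes. No label says that the 3 libraries of a group come from different animals; p-values then reflect only library-to-library spread, which may be technical. The procedure was tested on simulated data. Members and lists were chosen with earlier results of these data known; named genes are the 7 members, the 3 with the smallest p and any that passed in each list, and for each tested member the 3 genes most like it, and any other gene was named with its values known. Single values of some listed genes are not reported here. Ranges with few reads cover counting error only. Comparing the CYP1 proteins was planned and not done here, for want of protein sequences.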

Additional observations from a re-analysis of the deposited data

How the results depend on the processing

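All 15 alternatives were chosen with the design. In each, 0 AhR members passed. The members' median log2 fold change lay between -0.16 and 0.005, the latter with no low-count rule, where all 7 members enter. Ahr, Cyp1a2, Cyp1b1 and Tiparp kept their sign in all 15, with adjusted p from 0.131 to 0.812. Arnt turned negative with median-of-ratios (-0.01) and upper quartile scaling (-0.015), and lay between -0.046 and 0.09 with 1 library left out. Genes changed over all tested numbered 65; they were 0 with no low-count rule (2064 at an unadjusted p under 0.05 by limma-trend), 133 with limma-voom, and 0 to 36 with 1 library left out. The fit that called 0 was that without water replicate 3, with 1641 at an unadjusted p under 0.05. Same-numbered libraries did not deviate together (r = -0.036, 0.047 and -0.010 over genes), and not every library correlated best with its own number. These values gave no sign of pairing by number but cannot exclude it. With the replicate block 23 genes changed and 0 members did. Por lost its call with the block, with no low-count rule and without any 1 of the 6 libraries, and Alas1 with no low-count rule and without water replicate 3 (adjusted p from 0.0117 to 0.149 for Por and 0.00049 to 0.0915 for Alas1). Depth limits Cyp1a1 and Ahrr, with at most 18 and 3 reads a library.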
